A study of Mus with 3 samples.

Results

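Some CD8 T cells in MC38 tumors carried high counts of the chemokine genes Ccl3, Ccl4 and Xcl1 and of Ifng, the gene of interferon-γ. These cells were chosen by their UMI counts from a single-cell RNA and T cell receptor (TCR) library. A member had 500 or more gene UMIs (unique molecular identifiers, which count RNA molecules), a TCR clonotype in the deposited table, at least 1 Cd8a UMI and none of Cd4. It also had under 5 summed UMIs of the cell cycle genes Mki67, Top2a, Birc5 and Pclaf, under 5 of the granzyme genes Gzmc, Gzmd, Gzme and Gzmf, and 20 or more of Ccl3, Ccl4, Xcl1 and Ifng together. Of 5600 barcodes with 500 or more gene UMIs, 2046 were CD8 T cells with a clonotype and 141 were members. The levels of the 4 summed genes are therefore a description. The CD8 T cells with the same limits but a sum under 20, called chemokine-low here, numbered 1476 and served as the comparison.

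Tumors of MC38, a mouse colon adenocarcinoma line, were taken on day 16 after injection. WT mice were the controls. In RARα-KO mice, the retinoic acid receptor gene Rara is cut in T cells by a Cre that the distal Lck promoter drives, and in RARα-TG mice the CD2 promoter drives Rara. From each genotype, cells stained with a hashtag antibody were sorted as 30000 T cells positive for CD45.2 and CD3 plus 10000 cells of any kind, and all were pooled into 1 library made with the 10x Genomics 5′ kit. The labels also name spleen and naive CD8 T cells activated in culture, at odds with their own tumor protocol. Neither the number of mice per genotype nor the control strain of the WT tumor was stated in the sources used here. There was 1 sample per genotype, so there was no test between genotypes and no value has a replicate. The members comprised 21 WT cells, 106 RARα-KO cells, 1 RARα-TG cell and 13 cells without a clear hashtag. They held 128714 UMIs in WT and 823378 in RARα-KO, with medians of 5655 and 6434 UMIs per cell, against 4903 and 4905 in chemokine-low cells. Intervals below are exact 95% intervals for counting error only, since cells of a tumor and of a clonotype are not independent.

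A cytotoxic T lymphocyte (CTL) that meets its antigen transcribes a set of genes within hours and switches most of them off again when the contact ends. The set includes Ifng and Tnf, the chemokines CCL3 and CCL4, which attract other immune cells, and XCL1, which attracts cross-presenting dendritic cells through XCR1. Signals from the TCR reach these genes through the NFAT, AP-1 and NF-kB transcription factors. The same signals induce the EGR and NR4A families and Irf4. Granule genes such as Gzmb and Prf1 are held at a steadier level in effector CTLs. All cells of a clonotype descend from 1 ancestor and carry the same receptor, whose CDR3 loops meet the antigen.

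The 8 clonotypes with the most members are shown by their CDR3 nucleotide sequences, because they mark the receptors that the members shared with the other CD8 T cells. In each β chain, capitals mark the bases between the match to the V gene and the match to the J gene. In the TRAJ22 α chains, capitals mark an ending of 26 bases that all the printed TRAJ22 chains have in common. These chains were grouped by their J gene, so a common ending is not a separate result. The other α chains are in lower case, and clonotype 6 is shown by its β chain alone.
clonotype 1 β, TRBV16 TRBJ1-3: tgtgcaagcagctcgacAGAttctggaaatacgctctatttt
clonotype 1 α, TRAV14N-3 TRAJ22: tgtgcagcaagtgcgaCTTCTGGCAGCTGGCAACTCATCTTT
clonotype 2 β, TRBV3 TRBJ2-2: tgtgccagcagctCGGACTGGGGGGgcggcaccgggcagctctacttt
clonotype 2 α, TRAV3D-3 TRAJ31: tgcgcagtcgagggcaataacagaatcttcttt
clonotype 3 β, TRBV16 TRBJ1-4: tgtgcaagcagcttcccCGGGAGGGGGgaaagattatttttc
clonotype 3 α, TRAV14N-3 TRAJ22: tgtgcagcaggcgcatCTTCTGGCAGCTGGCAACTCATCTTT
clonotype 4 β, TRBV16 TRBJ2-1: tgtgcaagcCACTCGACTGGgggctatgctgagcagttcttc
clonotype 4 α, TRAV12D-1 TRAJ22: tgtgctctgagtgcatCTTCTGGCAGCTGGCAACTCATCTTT
clonotype 6 β, TRBV31 TRBJ2-4: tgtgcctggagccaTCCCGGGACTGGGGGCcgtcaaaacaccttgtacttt
clonotype 11 β, TRBV16 TRBJ1-2: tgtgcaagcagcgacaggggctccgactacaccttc
clonotype 11 α, TRAV14N-3 TRAJ22: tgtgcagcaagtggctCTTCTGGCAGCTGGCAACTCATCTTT
clonotype 13 β, TRBV16 TRBJ2-1: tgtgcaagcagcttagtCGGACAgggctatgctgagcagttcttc
clonotype 13 α, TRAV12D-1 TRAJ22: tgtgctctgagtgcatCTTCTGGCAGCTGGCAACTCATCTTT
clonotype 30 β, TRBV3 TRBJ1-4: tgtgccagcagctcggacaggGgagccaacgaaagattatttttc
clonotype 30 α, TRAV7D-3 TRAJ40: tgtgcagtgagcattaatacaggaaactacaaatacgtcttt
Clonotype 6 was made up of WT cells and the other clonotypes of RARα-KO cells. Clonotypes 4 and 13 had the same α sequence beside different β sequences.

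The members were checked against markers of T cells and of the other cells in the tumor. All 8 T cell genes of the list had UMIs, and they summed to 5897 CPM (UMIs of these genes per 1000000 gene UMIs) in WT and 5635 CPM in RARα-KO members, against 6058 and 6546 CPM in chemokine-low cells. Cd4 was at 0 by the rule, and Foxp3 and all 5 dendritic cell genes were at 0 in all members. The list of CD4 and regulatory T cell genes had 42 UMIs in 19 of 141 members, from Ikzf2 and Cd40lg. It stood at 93.2 CPM in WT and 19.4 CPM in RARα-KO members, against 135 and 34.4 CPM in chemokine-low cells and 1135 CPM in CD4 T cells. The NK cell list had 38 UMIs in 25 members, with Ncr1 and Klra8 at 0, and stood at 15.5 and 31.6 CPM against 19.5 and 37.9 CPM in chemokine-low cells. Macrophage and monocyte genes had 3 or more UMIs in 5 members, of which 3 were RARα-KO cells and the other two had no clear hashtag. These 5 cells held 25 to 201 UMIs of that list and a median of 15820 UMIs. WT members had 1 UMI of the list, and RARα-KO members had 219 CPM of it, against 88.6 CPM in RARα-KO chemokine-low cells. In addition, 3 RARα-KO members had 3 or more UMIs of the MC38 and stromal list, and 1 member without a hashtag had 191 neutrophil UMIs.

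Myeloid cells also transcribe Ccl3 and Ccl4, and 44.7% of 226 barcodes with macrophage genes had a Ccl4 UMI. Only 1.77% of them had an Ifng UMI and 0.885% an Xcl1 UMI. Of 461 MC38 or stromal barcodes, with a median of 28657 UMIs, 1.52% had a Ccl4 UMI and 0.217% an Xcl1 UMI. T cell genes had UMIs in 37 of the 226 and 50 of the 461 barcodes. Among members the shares were 95.7% for Ccl4, 76.6% for Ifng and 35.5% for Xcl1, which the rule itself raises. Of the other genes given as marks of these cells, Nfkbid, Irf4 and Tagap stood above chemokine-low cells in both genotypes. These marks were chosen with earlier results of these data known, so their levels here and below are a description. For Utf1 the WT interval reached below 0, with a log2 ratio of 0.57 (-0.91 to 1.75) in WT from 6 UMIs and 1.22 (0.76 to 1.68) in RARα-KO.

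Ccl3 (ENSMUSG00000000982) and Ccl4 (ENSMUSG00000018930) are neighbours on mouse chromosome 11, where GRCm38.p6 places them at 83647843 to 83649378 and 83648624 to 83664683. The Ccl4 span includes a predicted transcript that overlaps Ccl3. Ifng (ENSMUSG00000055170) lies on chromosome 10 at 118441046 to 118445894, and Xcl1 (ENSMUSG00000026573) on chromosome 1 at 164931644 to 164935522. The kit tags the 5′ end of a molecule, so counts were not divided by gene length.

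Ccl4 made up most of the sum. It was the gene with the most UMIs in 114 of the 141 members, Xcl1 in 14, Ccl3 in 7 and Ifng in 6. Among WT members 12 were led by Ccl4 and 7 by Xcl1, and among RARα-KO members 92 were led by Ccl4 and 4 by Xcl1. The sum of the 4 genes ran from 20 to 176 UMIs in WT members with a median of 26, and from 20 to 1246 with a median of 63.5 in RARα-KO members. The ranges overlapped, and the top 10 RARα-KO cells held 42.8% of their genotype's UMIs, while the top 3 WT cells held 38.0%.

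A WT member had 0 to 128 Ccl4 UMIs with a median of 20, and a RARα-KO member 0 to 932 with a median of 51. Pooled over cells, Ccl4 stood at 4677 CPM (4311 to 5066) in WT and 12054 CPM (11818 to 12294) in RARα-KO members. Ccl3 stood at 761 and 1884 CPM, and Ifng at 925 and 1652 CPM. These 3 genes were higher in RARα-KO members, by 1.37, 1.31 and 0.84 on the log2 scale, which describes cells that the rule chose by these genes. Xcl1 lay the other way, with 1383 CPM in WT and 583 CPM in RARα-KO members. It was found in 14 of 21 WT members (66.7%, 43.0% to 85.4%) and in 29 of 106 RARα-KO members (27.4%, 19.1% to 36.9%). Chemokine-low cells, whose sum also includes Xcl1, had 111 CPM of it in WT and 26.0 CPM in RARα-KO. The order was the other way in CD8 T cells with 5 or more Gzmc to Gzmf UMIs (35.7 and 75.7 CPM) and in proliferating ones (116 and 146 CPM). Most members had several of the genes. Of 21 WT members 8 had 3 and 7 had all 4, and of 106 RARα-KO members 57 had 3 and 20 had all 4.

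**Figure D1:**
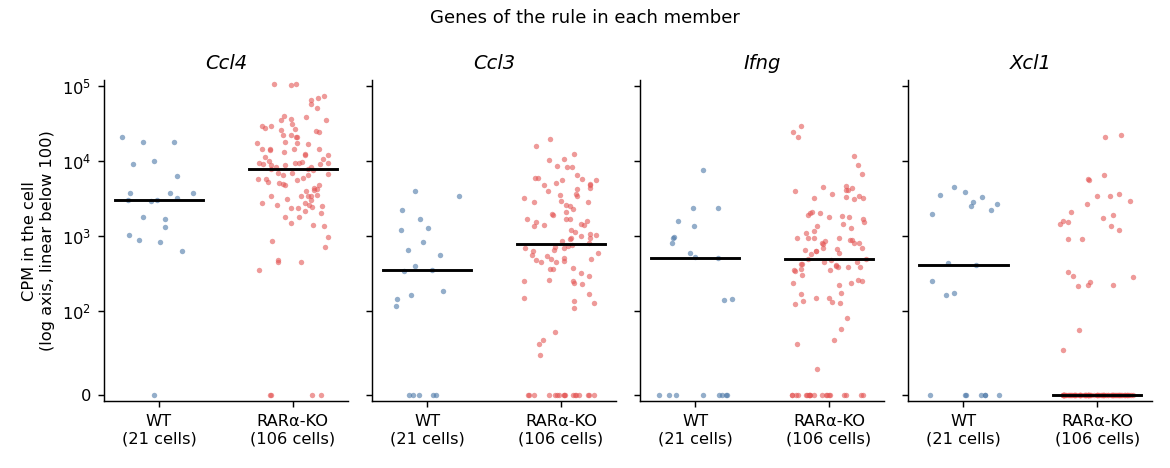
CPM of Ccl4, Ccl3, Ifng and Xcl1 in each member (points) of WT and RARα-KO with the median as a black line, on an axis that is logarithmic above 100 CPM and linear below. The cells of both genotypes overlap for each gene, and the RARα-KO median of Xcl1 is 0 because 29 of 106 cells had a UMI.

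The members' share of CD8 T cells with a clonotype was larger in RARα-KO than in WT. It was 21 of 792 cells in WT (2.65%, 1.65% to 4.02%) and 106 of 1039 in RARα-KO (10.2%, 8.43% to 12.2%), a ratio of 3.85. In RARα-TG, 1 of 101 cells was a member (0.990%, 0.0251% to 5.39%), an interval that holds the WT share. Among CD8 T cells without a clear hashtag the share was 11.4%. The ratio depended on the genes summed. With Xcl1 and Ifng alone at 10 or more UMIs the shares were 3.03% in WT and 3.95% in RARα-KO, a ratio of 1.30 with overlapping intervals. At 40 or more UMIs of the 4 genes it was 6.01. With a threshold of 4000 CPM in place of 20 UMIs, which does not move with depth, the shares were 2.27% and 9.14%. Near the threshold, 22 cells had sums of 15 to 19 UMIs (5 WT, 16 RARα-KO and 1 RARα-TG) and 17 had sums of 20 to 24 (7, 8 and 1, and 1 without a clear hashtag).

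**Figure D2:**
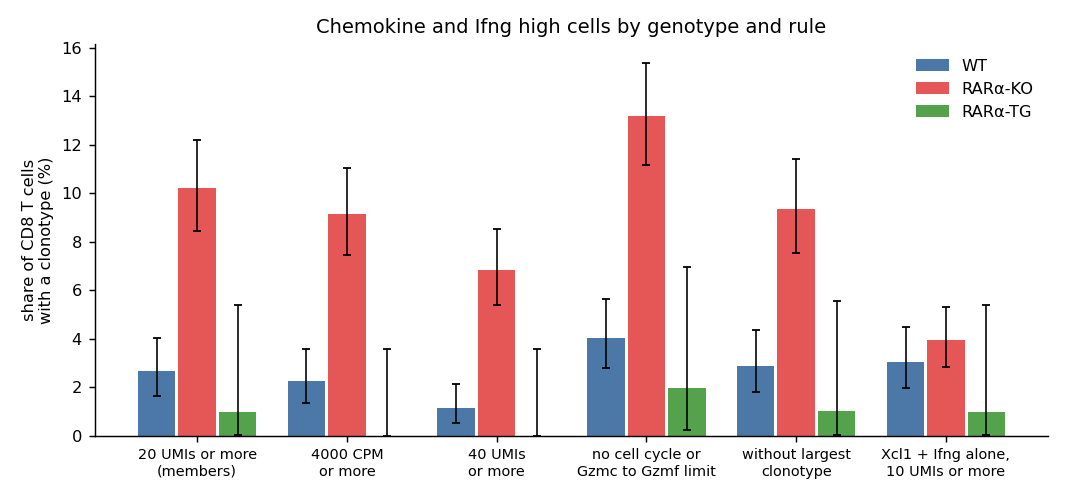
Share of CD8 T cells with a clonotype that met the rule, in percent, for WT, RARα-KO and RARα-TG, under the rule as stated and 5 changes to it (bars, with Clopper-Pearson 95% intervals for counting error). The RARα-KO bar is the highest in each set, and it overlaps the WT interval where Xcl1 and Ifng alone were summed.

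Members were then compared with chemokine-low cells within WT and within RARα-KO, so that genotype and tumor were shared. Values are log2 ratios of CPM of summed UMIs, the WT value first. Genes of the immediate response to antigen were higher in members of both genotypes. Of 19 genes of an antigen receptor response list with enough UMIs, 10 were 2-fold or more higher in both and none was lower, with list medians of 1.88 and 1.31. Over all 6608 genes, 117 (1.77%) were 2-fold or more higher in both and 100 (1.51%) lower, with medians of -0.04 and -0.04. Counting error limits single genes, since 41 of the 117 rested on 5 or fewer UMIs in WT members, and 77 had intervals without 0 in both genotypes.

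Nr4a1, an orphan nuclear receptor induced by TCR signals, had 886 CPM in WT members and 133 CPM in chemokine-low cells, and 785 and 156 CPM in RARα-KO. Its ratios were 2.73 (2.42 to 3.04) and 2.33 (2.18 to 2.49), with UMIs in 14 of 21 and 82 of 106 members. Its relatives Nr4a2 (1.12 and 1.58) and Nr4a3 (1.49 and 1.31) were also higher. Egr2, an early zinc-finger factor, stood at 85.5 against 3.07 CPM in WT and 71.7 against 10.2 CPM in RARα-KO, which gave ratios of 4.80 (3.39 to 6.25) and 2.81 (2.22 to 3.41). Egr1 stood at 2.82 and 2.22, but 37 of the 47 UMIs in WT members came from 1 cell. The WT value of Egr3 (3.51 and 2.97) rested on 4 UMIs of that same cell. Irf4, a factor needed for the expansion of effector T cells, had 218 against 34.8 CPM in WT and 181 against 55.3 CPM in RARα-KO, with ratios of 2.64 (1.99 to 3.26) and 1.71 (1.40 to 2.01). Myc, which drives growth after activation, was at 3.51 and 2.25. Spry1, an inhibitor of receptor signalling, was at 3.66 and 3.17, from 5 WT UMIs. Il2ra, a subunit of the interleukin-2 receptor, was higher by 1.88 and 1.34, in 17 of 21 and 77 of 106 members. Tagap, which encodes a GTPase-activating protein of T cells, differed in size between genotypes, with 2.53 (2.10 to 2.95) in WT and 0.78 (0.49 to 1.06) in RARα-KO.

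Of 15 genes of NF-kB subunits and feedback regulators, 2 passed 2-fold in both genotypes. Nfkbid, a nuclear IκB protein, stood at 590 against 76.4 CPM in WT and 412 against 94.4 CPM in RARα-KO, with ratios of 2.95 (2.55 to 3.33) and 2.12 (1.91 to 2.34). Nfkbiz, another nuclear IκB protein, was at 1.86 and 1.39. The subunits moved less, with 1.06 and 0.48 for Nfkb1 and 0.82 and 1.19 for Rel, and the medians of the list were 0.73 and -0.06. In WT that median lay above the one of all genes, and in RARα-KO it did not.

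Deeper cells show more genes, so cells were also thinned to 2000 UMIs each, which left out 3 WT and 23 RARα-KO chemokine-low cells. After thinning, 51.7% of WT and 56.3% of RARα-KO members had a Nr4a1 UMI, against 19.2% and 18.8% of chemokine-low cells. Before it, the shares were 66.7% and 77.4% against 33.9% and 30.8%. For Nfkbid the thinned shares were 46.4% and 42.4% against 12.3% and 13.6% (unthinned 66.7% and 68.9% against 20.6% and 22.6%). The order of members and chemokine-low cells was the same at equal depth for both genes.

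**Figure D3:**
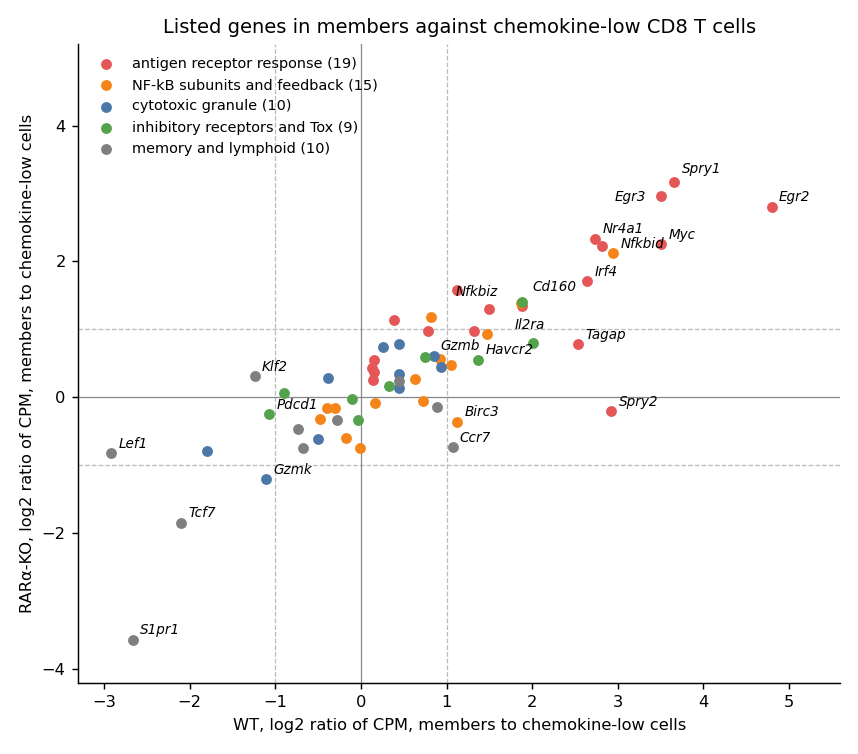
Log2 ratio of CPM of members to chemokine-low cells in WT (horizontal) and RARα-KO (vertical) for the genes of 5 lists, with dashed lines at 2-fold. Genes of the antigen receptor response reach the upper right, Nfkbid and Nfkbiz lie with them, cytotoxic granule genes gather near 0 with Gzmk and Gzma below, and Tcf7 and S1pr1 lie at the lower left.

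Among cytokine genes outside the rule, 3 of 7 passed 2-fold in both genotypes. Tnf, the gene of tumor necrosis factor, had 536 against 25.9 CPM in WT and 187 against 37.7 CPM in RARα-KO, with ratios of 4.37 (3.88 to 4.86) and 2.31 (1.98 to 2.64). In RARα-KO it was found in 51 of 106 members, while 1 cell held 60 of the 69 UMIs of the 7 WT members that had any. Csf2 (5.30 and 1.97) came from 3 WT members with 52 UMIs and 2 RARα-KO members with 6. Lta, which encodes lymphotoxin α, was at 3.51 and 1.29, in 9 and 17 members. Il2 had 19 UMIs in 2 WT members, 18 of them in 1 cell, and none in RARα-KO members.

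Of 4 other chemokine genes, Ccl1 and Ccl9 passed 2-fold in both genotypes. Ccl1, whose protein binds CCR8, stood at 1297 CPM in WT members from 8 cells and at 78.9 CPM in RARα-KO members from 6 cells. Against chemokine-low cells its ratios were 3.82 (3.53 to 4.10) and 2.85 (2.29 to 3.43). Ccl9 (3.29 and 3.75) came from 1 WT and 3 RARα-KO cells. Ccl5, the chemokine that resting effector CTLs already transcribe, did not follow the others. Its levels were 6192 against 5348 CPM in WT and 11775 against 14498 CPM in RARα-KO, or 0.21 (0.11 to 0.31) and -0.30 (-0.33 to -0.27). Of 5 genes of the TNF ligand family, Tnfsf14 (3.58 and 2.28) and Tnfsf11 (1.04 and 1.81) passed 2-fold in both genotypes. Of 8 AP-1 genes, Atf3 (2.91 and 2.22), Fos (2.05 and 2.40) and Maff (2.92 and 1.90) did, although the 8 WT UMIs of Fos were all in 1 cell. Spin4, also among the highest genes (2.92 and 3.29), had 1 UMI in WT members.

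None of 10 cytotoxic granule genes was 2-fold or more higher in both genotypes, and the list medians were 0.35 and 0.31. Gzmk, a granzyme of less differentiated CD8 T cells, was lower in both (-1.11, -2.33 to -0.12, and -1.20, -1.44 to -0.98). Gzma, which encodes granzyme A, was at -1.79 (-2.39 to -1.26) and -0.78 (-0.93 to -0.65). Gzmb had 3108 against 1727 CPM in WT and 8244 against 5396 CPM in RARα-KO, with ratios of 0.85 (0.70 to 0.99) and 0.61 (0.57 to 0.65). Prf1, the gene of perforin, was at 0.45 (-0.06 to 0.92) and 0.79 (0.66 to 0.91). Nkg7 was at 0.44 and 0.14, and Fasl at 0.40 and 0.09. Of 9 inhibitory receptor genes, Cd160 (1.88 and 1.41) passed 2-fold in both. Havcr2, which encodes TIM-3, was at 1.37 and 0.55, Lag3 at 0.32 and 0.17 and Pdcd1 at -1.07 and -0.24. Tnfrsf9, which encodes the costimulatory receptor 4-1BB, was at 0.13 and 0.43, and none of 10 costimulatory receptor genes passed 2-fold in both.

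Of 10 genes of memory and of residence in lymphoid organs with enough UMIs, 2 were 2-fold or more lower in members of both genotypes and none was higher, and the medians were -0.71 and -0.60. Tcf7, the factor of stem-like T cells, was counted 2 times in WT and 10 times in RARα-KO members, or at 15.5 and 12.1 CPM, against 66.5 and 43.7 CPM in chemokine-low cells. The ratios were -2.10 (-5.15 to -0.23) and -1.85 (-2.93 to -0.94). S1pr1, the receptor that guides exit from tissue, had 1 and 3 UMIs (-2.66, -7.97 to -0.16, and -3.57, -5.86 to -2.0). Il7r lay at -0.73 and -0.46. The genotypes differed in sign for Ccr7 (1.07, 0.78 to 1.35, and -0.74, -1.09 to -0.40) and Klf2 (-1.24 and 0.31). For Ccr7, 1 cell held 61 of the 110 UMIs of WT members, and the WT value was -0.0046 with a threshold of 4000 CPM. At equal depth of 2000 UMIs, 3.15% and 2.48% of members had a Tcf7 UMI, against 12.8% and 8.76% of chemokine-low cells (unthinned 4.76% and 8.49% against 19.1% and 13.5%).

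Other genes among the lowest in both genotypes were Mxd4, which opposes Myc (-1.70 and -2.07), St8sia4 (-2.05 and -2.30), Gprin3 (-1.72 and -3.04), Rundc3b (-1.93 and -1.78), Gpm6b (-2.22 and -1.74), Ankrd54 (-1.78 and -1.59), Apol7e (-1.56 and -2.05), Eif2ak3 (-2.76 and -1.54) and Elmsan1 (-3.25 and -1.53). Most had 1 UMI in WT members, and of all 100 genes lower in both genotypes, 56 had 1 or none there and 36 had intervals without 0 in both.

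A gene of the interferon-γ receptor was lower in the cells that were rich in Ifng. Ifngr1, a subunit of the interferon-γ receptor, had 536 against 1239 CPM in WT and 503 against 1025 CPM in RARα-KO, with ratios of -1.21 (-1.57 to -0.87) and -1.03 (-1.18 to -0.88). Of 10 interferon-stimulated genes with enough UMIs, 2 were 2-fold or more lower in both genotypes and 0 higher, with list medians of -0.21 and -0.39. Among the lower ones, Rtp4 was at -2.46 (-7.77 to 0.05) and -1.80 (-2.96 to -0.84). Its WT value rested on 1 UMI in members, and that interval held 0. Tgfbr2, a receptor of TGF-β, was at -1.22 and -1.02. Of 14 genes of ribosome biogenesis and Myc targets, Srm (2.04 and 1.94) and Nolc1 (1.23 and 1.19) passed 2-fold in both, the list medians were 1.17 and 0.80, and Npm1 lay at 1.09 and 0.74. None of 13 glycolysis and hypoxia genes, 14 heat shock genes, 12 effector transcription factors or 13 chemokine receptor and integrin genes did so in either direction. Of 7 NK-type receptor genes Cd7 was lower in both (-1.50 and -4.12).

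Of 4 retinoic acid receptor and binding genes with enough UMIs, Crabp2, which encodes a retinoic acid binding protein, was higher in both genotypes (4.38 and 1.46), from 11 UMIs in 3 WT and 10 UMIs in 6 RARα-KO members. The RARα-KO direction did not hold with 40 or more UMIs (-0.0015), with 4000 CPM (-1.88) or with Xcl1 and Ifng alone (-0.56). Rara itself had 101 CPM in WT members from 13 UMIs and 81.4 CPM in RARα-KO members from 67 UMIs, against 95.9 and 83.2 CPM in chemokine-low cells. The shortened transcript left by the deletion is still counted, so these counts do not check the knockout.

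Cells below the threshold were split further by the sum of the 4 genes. In RARα-KO, Nr4a1 stood at 118 CPM in 453 cells with a sum of 0, 129 CPM in 241 cells at 1 to 4, 226 CPM in 48 cells at 5 to 9 and 668 CPM in 36 cells at 10 to 19. It was 504 CPM in 40 members at 20 to 49 and 969 CPM in 66 members at 50 or more. In WT the same bins gave 108, 142, 159, 363, 552 and 1626 CPM of Nr4a1. The higher values of Nr4a1 thus began below the 20 UMIs that define a member. Nfkbid was 58.8, 78, 197, 466, 202 and 550 CPM in RARα-KO, which is not a steady rise. Gzmb in RARα-KO was 4437 CPM at a sum of 0 and 9472 CPM at 50 or more, whereas Tcf7 was 67.7 CPM at 0 and 15.5 CPM at 1 to 4. The WT bins of 10 or more UMIs held 17, 15 and 6 cells, and 1 cell can move them.

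**Figure D4:**
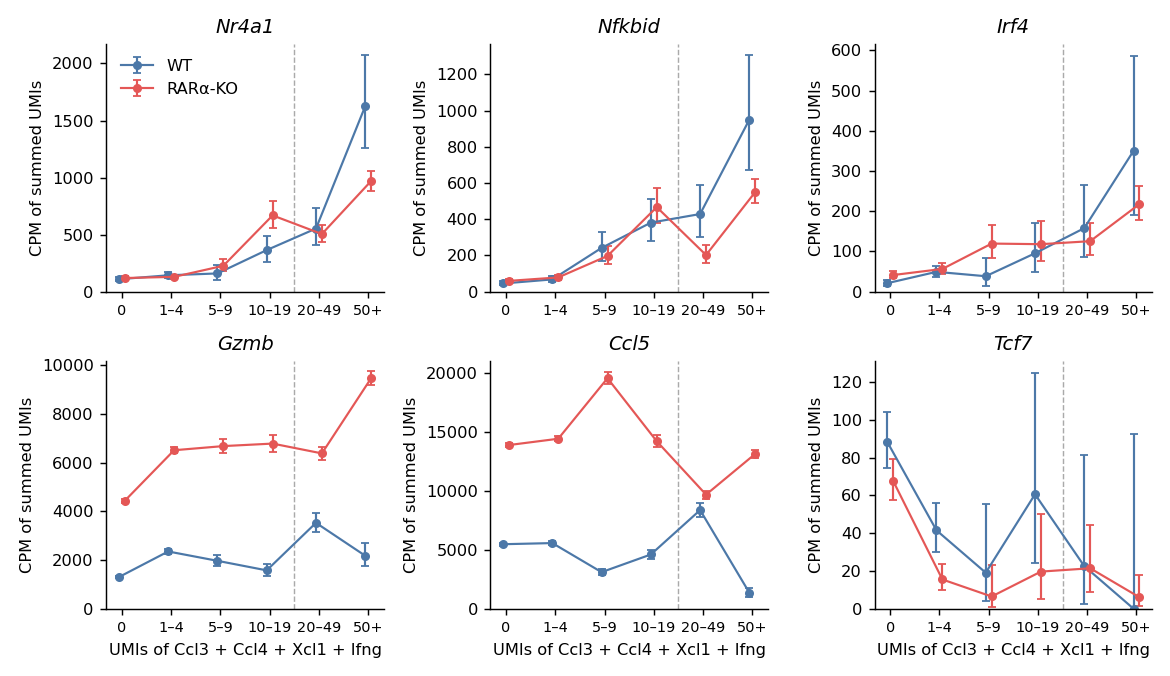
CPM of Nr4a1, Nfkbid, Irf4, Gzmb, Ccl5 and Tcf7 in CD8 T cells binned by their summed UMIs of Ccl3, Ccl4, Xcl1 and Ifng, for WT and RARα-KO (points, with Poisson 95% intervals), the dashed line marking the threshold of 20 UMIs. Nr4a1 and Irf4 are highest at 50 or more UMIs in both genotypes, and Tcf7 is highest at a sum of 0.

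RARα-KO and WT members were compared next. Over 6471 genes, 852 (13.2%) were 2-fold or more higher in RARα-KO members and 587 (9.07%) lower, and many of these rested on few UMIs. Of the 852, 517 had 1 UMI or none in WT members and 155 had an interval without 0. Of the 587, 306 had 5 or fewer UMIs in WT members and 213 had an interval without 0. The same 2-fold difference was present in chemokine-low cells for 61 of the 852 and 36 of the 587.

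Of 10 cytotoxic granule genes, 4 were 2-fold or more higher in RARα-KO members, namely Gzma (1.36), Gzmb (1.41), Gzmk (1.71) and Prf1 (1.41), and none was lower. Gzmb was higher by 1.64, Gzmk by 1.81 and Prf1 by 1.08 in chemokine-low cells too, and Gzma by 0.35. For Gzma, 1 cell held 22 of the 28 UMIs of WT members, and its value was -0.14 with 10 or more UMIs. Tnfrsf9 stood at 451 CPM in WT and 1808 CPM in RARα-KO members (2.0, 1.63 to 2.41), with 1.71 in chemokine-low cells, and Ccl5 was at 0.93 in members and 1.44 in chemokine-low cells. The antigen receptor response list had a median of -0.14, with Tnfrsf9 higher and Myc, Tagap and Spry2 lower among 19 genes. Nr4a1 (-0.17, -0.46 to 0.13), Irf4 (-0.27, -0.86 to 0.37), Il2ra (-0.22, -0.64 to 0.21) and Egr2 (-0.25, -1.20 to 0.82) had intervals that held 0. Of 15 heat shock and dissociation genes 6 were higher in RARα-KO members and none lower.

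Hspa1b (4.47, 2.91 to 6.75) and Hspa1a, a near-identical copy whose reads may be split uncertainly, led that group. Hspa1a had 314 UMIs in 28 RARα-KO members and none in WT members, at least 4.03 on the log2 scale against a floor of 3 UMIs in the group. The differences in chemokine-low cells were 3.30 and 3.79. Jun, an AP-1 subunit, had 178 UMIs in 40 RARα-KO members and none in WT members (at least 3.21, with 2.15 in chemokine-low cells), and Ankrd37, a hypoxia-inducible gene, had 181 UMIs in 54 members and none in WT (at least 3.24, with 2.48). Cebpb had 181 UMIs in 35 RARα-KO members and 1 in WT members (4.82, 2.33 to 10.1), with 0.08 in chemokine-low cells. Cdkn2d (3.25) had 61 UMIs in 37 RARα-KO members and 1 UMI in WT members.

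Spp1 (4.70), Ctsl (4.19), Crip2 (3.25) and Tm4sf1 (3.13) came from 9, 10, 8 and 4 RARα-KO members. For each gene the top 3 of these cells held most UMIs, with 132 of 166, 97 of 117, 56 of 61 and 55 of 56. Spp1 and Ctsl are abundant in macrophages. Without the members that held 3 or more macrophage list UMIs, Spp1 lay at 4.42, Ctsl at 3.82 and Cebpb at 4.03. The 153 UMIs of Fcer1g in RARα-KO members went to 0. No member was taken out for its MC38 and stromal UMIs.

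Of 8 cytokine genes, 5 were 2-fold or more lower in RARα-KO members and none higher, and 4 of 5 TNF ligand genes were lower. These counts rested in part on the WT member with the most Tnf UMIs. Without that cell 3 of the 8 cytokine genes were lower, Tnf was higher (1.35) and Il2 was left with 1 UMI and no ratio, and 2 of the 5 TNF ligand genes were lower. With no limits on cell cycle genes and Gzmc to Gzmf, Tnf was at 0.11 and Tnfsf14 at 0.52. Ccl1 had 167 UMIs in 8 WT members, with 93 in 1 cell, and 65 UMIs in 6 RARα-KO members (-4.04, -4.48 to -3.62), and it was at -3.08 in chemokine-low cells. Csf2 (-5.79, with 44 of 52 WT UMIs in 1 cell), Lta (-2.85) and Tnfsf9 (-2.47, and -0.43 without the WT member with the most Tnf UMIs) followed. Csf1, the growth factor of macrophages, was at -1.56 in members and -1.58 in chemokine-low cells. Ccr7, the lymph node homing receptor, had 855 CPM in 7 WT members and 98.4 CPM in 17 RARα-KO members (-3.12, -3.55 to -2.69), with -1.31 in chemokine-low cells. Crabp2 (-2.81), Cd83 (-2.68), Exosc1 (-2.68) and Ikzf2 (-2.56) were the other genes among the 10 lowest, beside Rpl29.

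Rpl29, a ribosomal protein gene, had 3139 CPM in WT and 479 CPM in RARα-KO members (-2.71, -2.92 to -2.51), with -3.19 in chemokine-low cells. It was at -0.29 in barcodes with neither a clonotype nor a Cd3 UMI. That group includes MC38 or stromal barcodes, and the same MC38 line was injected in each genotype. Among chemokine-low cells, the level of Rpl29 was 3289 CPM for WT, 3202 for RARα-TG and 360 for RARα-KO. Rpl29 has pseudogene copies, and counts of such genes are uncertain. Whether this bears on the difference was not tested.

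For several of these genes 1 WT member, with 6139 UMIs, decided the value. It held 60 of the 69 Tnf UMIs of WT members, 18 of 19 for Il2, 20 of 26 for Tnfsf9, 7 of 11 for Tnfsf14 and 14 of 26 for Myc. It also held 46 of the 119 Ifng UMIs and none of the 400 Gzmb UMIs. With that cell, Tnf was lower in RARα-KO members (-1.52, -1.94 to -1.09), and without it higher (1.35, 0.39 to 2.50). Myc went from -1.0 to 0.04.

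TCRs were not used by the rule beyond the presence of a clonotype. The members belonged to 15 clonotypes in WT and 36 in RARα-KO. Of these, 12 and 32 also had chemokine-low cells, and they held 18 of 21 and 102 of 106 members. Cells in clonotypes of 10 or more CD8 T cells were 66.7% of WT members (43.0% to 85.4%) and 55.6% of WT chemokine-low cells. In RARα-KO they were 77.4% of members (68.2% to 84.9%) and 67.2% of chemokine-low cells (63.8% to 70.5%). Members made up 4.0% of RARα-KO cells in clonotypes of 1 cell (1.10% to 9.93%), 8.77% at 2 to 9 cells and 11.5% at 10 or more (9.28% to 14.1%). In WT they were 1.55%, 2.54% and 3.0%. The intervals of the smallest and the largest clonotypes overlapped in both genotypes.

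Of 23 RARα-KO clonotypes of 10 or more cells, 18 had members, with a median share of 10.5% and a highest of 20.8%. Of 19 such WT clonotypes 8 had members, with a highest of 13.3%. Clonotype 1 had 20 members among 119 RARα-KO cells (16.8%, 10.6% to 24.8%), clonotype 2 had 14 of 74 (18.9%, 10.7% to 29.7%), clonotype 3 had 7 of 77 (9.09%) and clonotype 4 had 8 of 76 (10.5%). Clonotype 6 had 6 of 58 WT cells (10.3%, 3.89% to 21.2%), which is 6 of the 21 WT members. Clonotypes of 50 or more cells held 49 of 106 RARα-KO members (46.2%, 36.5% to 56.2%) and 31.9% of RARα-KO chemokine-low cells (28.6% to 35.3%). In WT these shares were 28.6% (11.3% to 52.2%) and 16.7% (13.7% to 20.1%). Members thus occurred in many receptors, but in RARα-KO the largest clonotypes held a larger share of members than of chemokine-low cells. No clonotype of 10 or more cells consisted of members alone.

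**Figure D5:**
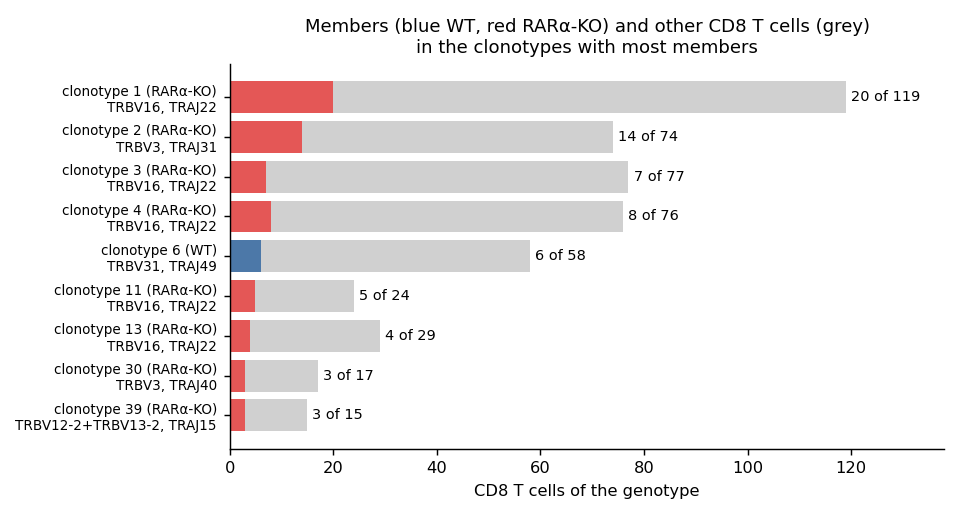
Members (blue for WT, red for RARα-KO) and other CD8 T cells (grey) in the 9 clonotypes with the most members, as numbers of cells of the genotype, with the V gene of the β chain and the J gene of the α chain. Members are a minority in each, from 7 of 77 cells in clonotype 3 to 5 of 24 in clonotype 11.

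The V and J genes seen in the printed sequences were common in RARα-KO cells whether or not they were members. TRBV16 was used by 66 of 105 RARα-KO members (62.9%, 52.9% to 72.1%) and 58.8% of chemokine-low cells, and TRAJ22 by 48 of 91 (52.7%) and 50.4%. Both together were found in 47 of 90 members (52.2%) and 46.5% of chemokine-low cells. Counted by clonotype, TRBV16 was in 19 of 36 clonotypes with members (52.8%, 35.5% to 69.6%) and 32.7% of those with chemokine-low cells (25.3% to 40.7%). Of the 36, 32 also had chemokine-low cells, so the sets overlap. A large clonotype has more cells that can be members, so this count does not remove clonotype size. In WT, TRBV16 was used by 4 of 21 members and 10.9% of chemokine-low cells, and no member had both genes. Among RARα-KO cells with TRBV16 11.0% were members, and among those with another V gene 9.22%, with overlapping intervals.

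Within the 4 RARα-KO clonotypes of 50 or more cells, which are clonotypes 1 to 4, 49 members could be compared with 248 chemokine-low cells of the same receptors. Nr4a1 was at 1158 against 153 CPM (2.92, 2.68 to 3.17), Nfkbid at 576 against 101 CPM (2.51, 2.19 to 2.83) and Irf4 at 232 against 65.5 CPM (1.82, 1.37 to 2.27). Egr2 (2.90), Tnf (2.96) and Myc (2.35) were also higher. Gzmb lay at 0.13 (0.06 to 0.20) and Prf1 at -0.12 (-0.37 to 0.12). Tcf7 had 3 UMIs in these members (-1.85, -4.18 to -0.21). These sums pool 4 receptors. Taken one clonotype at a time, from clonotype 1 to 4, Nr4a1 was at 3.14 (2.76 to 3.53), 3.32 (2.72 to 3.96), 1.58 (0.86 to 2.25) and 3.23 (2.55 to 3.92), and Nfkbid at 3.62, 2.06, 1.38 and 2.48. Both genes were thus higher in members within each of the 4 receptors. Irf4 was at 2.11, -0.50, 2.47 and 3.04, where the value of clonotype 2 rested on 6 UMIs in members (-2.07 to 0.80). Gzmb was lower in members of clonotype 1 (-0.35, -0.45 to -0.24) and higher in those of the other clonotypes (0.66, 0.37 and 0.51). Prf1 was at -1.19 (-1.62 to -0.79) in clonotype 1 and at 0.19, 1.27 and 0.80 in the others. The pooled values of Gzmb and Prf1 near 0 thus joined opposite signs.

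The single RARα-TG member had 9330 UMIs and reached the threshold with 21 Xcl1 UMIs alone. It had no UMI of Ccl3, Ccl4, Ifng, Nr4a1, Egr1, Nfkbid, Irf4, Tagap or Il2ra, and 17 Gzmb, 10 Tnfrsf9 and 2 Cd69 UMIs. It was the only cell of its clonotype. In RARα-TG chemokine-low cells Rara was at 214 CPM (172 to 264), above the 95.9 CPM of WT.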

How the data were processed

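Reads were mapped by the authors to mm10 with Cell Ranger (6.1.0 per the labels, 4 per the header of the deposited matrix), and the authors deposited raw counts, as UMIs per gene and barcode, for 730308 barcodes and 32285 genes (46394322 gene UMIs) with 3 hashtags and a table of TCR contigs. A genotype was the hashtag with 10 or more UMIs and 3 times the next (C0301 for WT, C0302 for RARα-KO, C0303 for RARα-TG). The members and the lists were chosen with earlier results of these data known. UMIs were summed over the cells of a class and genotype and divided by all their gene UMIs (CPM), in Python 3.11.15 with numpy 2.4.6, scipy 1.17.1, pandas 2.3.3 and matplotlib 3.10.9. With 1 sample per genotype no test was run. Sums have exact Poisson, shares Clopper-Pearson and ratios binomial 95% intervals, and a count of 0 was set to 3 UMIs in ratios. Genes needed 0.1 UMIs per cell in a compared group, and 258 TCR genes were left out. The interval script was tested on simulated Poisson counts, drawn independently for each gene. That setting does not cover genes whose UMIs lie mostly in 1 cell.

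The genes named were the 12 highest and 12 lowest against chemokine-low cells by the smaller ratio of both genotypes. The 10 highest and 10 lowest of RARα-KO against WT with 20 or more UMIs were added. So were the genes given as marks of these cells, and up to 4 genes of each of 19 lists by UMIs or past 2-fold. Further genes of the lists and Fcer1g were named after their values were seen. Some items that these choices would name are not reported here. Of 246 list genes 2, Aldoa and Mx1, were not matched because their name stands for several identifiers. No doublet caller was run. Alternatives without the cells most rich in UMIs, or without those with 3 or more macrophage UMIs, stand in place of one. Promoters of the 4 rule genes were not analysed here. Sequences were taken from the contig table, and positions from RefSeq for GRCm38.p6.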

Additional observations from a re-analysis of the deposited data

Results flagged for a closer look

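In cells that the comparisons above do not use, 20 or more UMIs of the 4 genes were also found. Among barcodes with Cd8a and Cd3e but no Cd4 and no clonotype, it was 2 of 50 in WT (4%, 0.488% to 13.7%) and 28 of 232 in RARα-KO (12.1%, 8.17% to 17.0%). Among CD4 T cells with a clonotype it was 5 of 207 in WT (2.42%, 0.789% to 5.55%) and 8 of 251 in RARα-KO (3.19%, 1.39% to 6.18%), shares with overlapping intervals.

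The ratio of members to chemokine-low cells had opposite signs in WT and RARα-KO for 3 of the named or listed genes, each with both intervals clear of 0 and 1 ratio past 2-fold. Ccr7 was at 1.07 in WT and -0.74 in RARα-KO, from 7 and 17 members, and its WT value was -0.0046 under a threshold of 4000 CPM. Cebpb was at -3.92 in WT, from 1 UMI, and at 0.82 in RARα-KO. Klf2, a factor that keeps T cells quiescent, was at -1.24 in WT, from 7 UMIs, and at 0.31 in RARα-KO. These differences between genotypes were not tested, since each genotype was 1 sample.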

How the results depend on the processing

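The members' share was higher in RARα-KO than in WT under each of 13 alternatives, with ratios from 1.30 to 6.01. The share moved in WT and RARα-KO with 10 or more UMIs (4.80% and 13.7%), with 40 or more (1.14% and 6.83%) and without limits on cell cycle genes and Gzmc to Gzmf (4.04% and 13.2%). In RARα-KO it also moved with Xcl1 and Ifng alone (3.95%) and with each clonotype weighted equally (5.85%). In RARα-TG it was 0 of 101 cells, which allows up to 3.59%, with 40 or more UMIs and with 4000 CPM. Shares of members in clonotypes of 10 or more cells kept within their intervals. Genes higher in members of both genotypes numbered 212 with Xcl1 and Ifng alone and 196 without a filter on low genes. Genes lower in both numbered 52 with 40 or more UMIs, 266 with Xcl1 and Ifng alone and 61 without the cell cycle and granzyme limits. Genes higher in RARα-KO members numbered 538 with 40 or more UMIs, and genes lower 1490 with 40 or more UMIs, 947 with 4000 CPM, 1028 with Xcl1 and Ifng alone and 1202 without the filter. The causes were not tested beyond what each setting leaves out.

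Single genes with a ratio of 2-fold or more under the rule as stated reversed in sign as follows (log2). Against chemokine-low cells these were, in WT, St8sia4 (0.083) and Cd7 (1.06) with 10 or more UMIs, Cd7 (1.55) with Xcl1 and Ifng alone, Nolc1 (-0.026) with 40 or more, Ccr7 (-0.0046) with 4000 CPM and Fos (-0.36) without the cell cycle and granzyme limits. In RARα-KO it was Crabp2, with 40 or more UMIs (-0.0015), 4000 CPM (-1.88) and Xcl1 and Ifng alone (-0.56). Between RARα-KO and WT members these were Gzma (-0.14) with 10 or more UMIs, Cd83 with 40 or more (0.72) and with a hashtag of 5 times the next (1.17), and Crip2 (-0.11) with 4000 CPM. Tm4sf1 reversed with 4000 CPM (-0.69) and without the 5% of cells richest in UMIs (-0.47). Spp1 (-0.59), Myc (0.14) and Tagap (0.24) reversed with Xcl1 and Ifng alone. Without the cell cycle and granzyme limits Tnf (0.11), Tnfsf14 (0.52) and Myc (0.010) reversed, and without the WT member with the most Tnf UMIs Tnf (1.35) and Myc (0.042). Of 2279 values of single genes under alternatives, 1948 were counted as staying within their intervals and 308 as moving out of them. Smaller ratios that changed sign were not counted as reversed and are among these. Of 912 list medians 867 stayed.

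The limits on cell cycle genes and granzymes, the equal weight of clonotypes and the WT member with the most Tnf UMIs were chosen after seeing the data. No paired analysis was possible because each genotype was 1 sample of 1 pooled library. No replicate was left out for the same reason. WT members were 21 cells with 128714 UMIs, in which a gene at 0.1 UMIs per cell has a few counts, and the RARα-TG member was 1 cell with 9330 UMIs. The RARα-TG cells allow a member share of up to 5.39%. Genotype, tumor and mouse cannot be told apart.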

Other observations

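CD8 T cells outside the limits on cell cycle genes and Gzmc to Gzmf also reached 20 UMIs of the 4 genes. Of proliferating cells 7.89% did so in WT and 21.2% in RARα-KO, and of cells with 5 or more Gzmc to Gzmf UMIs 3.33% and 18.6%. With all CD8 T cells counted, 32 of 792 WT cells (4.04%, 2.78% to 5.66%), 137 of 1039 RARα-KO cells (13.2%, 11.2% to 15.4%) and 2 of 101 RARα-TG cells reached it.

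Of the 21 WT members, 12 were led by Ccl4 and 7 by Xcl1, and the other two by Ccl3 and Ifng. In WT, cells led by Ccl4 and by Xcl1 differed in other genes. Nr4a1 was at 1503 CPM in the cells led by Ccl4 (1221 to 1830) and 257 CPM in those led by Xcl1 (133 to 450). Nfkbid was at 865 and 257 CPM, Ccl5 at 9381 and 2961 CPM, and Gzmb at 2110 and 3411 CPM. The 52 Csf2 UMIs of the WT members were all in cells led by Ccl4. The WT member with the most Tnf UMIs was also led by Ccl4. It held 39 of the 99 Nr4a1 UMIs and 22 of the 57 Nfkbid UMIs of that group. In RARα-KO the 4 cells led by Xcl1 had 204 CPM of Nr4a1 from 4 UMIs, against 812 CPM in the 92 led by Ccl4. For Nfkbid, Ccl5 and Gzmb the order in RARα-KO was opposite to that in WT. Cells led by Ccl4 had 418, 12029 and 8448 CPM of them, and those led by Xcl1 had 562, 17220 and 1584 CPM. Groups this small are given as values only.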
